A study of Mus musculus with 2 samples.

Results

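Potassium channel genes were taken as all rows of the feature lists whose symbol starts with Kcn, without antisense and overlapping transcripts. Of 32285 rows, 99 start with Kcn and 94 were kept. Kcnab3os, Kcnd3os, Kcnmb4os1, Kcnmb4os2 and Kcnq1ot1 were left out, 3 of them with a number after os or ot. The members comprise 40 voltage-gated pore subunits (Kcna, Kcnb, Kcnc, Kcnd, Kcnf, Kcng, Kcnh, Kcnq, Kcns and Kcnv), 12 voltage-gated auxiliary subunits (Kcnab, Kcne and Kcnip), 15 inward rectifiers (Kcnj) and 14 tandem-pore-domain channels (Kcnk). A further 8 are calcium- or sodium-activated pore subunits (Kcnma, Kcnn, Kcnt and Kcnu), 4 are beta subunits of the large-conductance BK channel (Kcnmb), and 1, Kcnrg, encodes no channel subunit of these kinds.

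The data are single-nucleus RNA counts from mesenteric perivascular fat, the adipose tissue that surrounds the mesenteric vessels. One library came from Prdm16flox mice, which carry a floxed Prdm16 gene and serve as the control. The other came from mice labelled Prdm16flox, AdopiQCre+, that is, with a Cre driven from the adiponectin gene, which acts in adipocytes. Both are of mice aged 11 weeks, and the floxed allele is shared by both groups. Each group has 1 library, the labels do not state how many animals stand behind a library, and no difference between the libraries has a replicate check. All intervals cover counting error only. The series title and design text name thoracic and abdominal tissue and total RNA, whereas the sample labels name mesenteric tissue and nuclear RNA.

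After filtering, 10532 control nuclei with 92834737 unique molecular identifiers (UMIs, counted molecules) and 7374 nuclei with 62139712 UMIs in the other library were kept. Median depth was 7047.5 and 6497 UMIs per nucleus. The libraries share 28 cell barcodes, of which 24 belong to kept nuclei. In adipocyte-like nuclei, Prdm16 stood at 16.3 CPM (UMIs of a gene per 1000000 UMIs of the class) in the control and 22.4 CPM in the other library, a log2 ratio of 0.46 (95% interval 0.32 to 0.59). It was not lower there. Which exon is floxed is not stated in the labels, and gene totals therefore do not check the deletion, and the second library is called the library labelled cKO throughout. Cell classes were rebuilt by clustering and carry the ending "-like". Members were not kept out of the clustering: 22 of them were among the 2000 variable genes, so differences between classes are descriptions. Kcnj8, Kcnip1, Kcnd3, Kcnh1 and Kcnc1 each stand among the 10 leading genes of a cluster.

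Potassium channels let potassium leave the cell along its gradient and so hold or restore a negative membrane potential. In vascular smooth muscle this limits calcium entry through voltage-gated calcium channels and relaxes the vessel. BK channels (pore Kcnma1, beta subunit Kcnmb1), Kv channels (among them Kcna5 and Kcnq5) and inward rectifiers take part. KATP channels close when ATP is high and are built from an inward rectifier (Kcnj8 or Kcnj11) and a sulfonylurea receptor (Abcc9 or Abcc8). In fat cells, voltage-gated and tandem-pore channels can contribute to the membrane potential, and Kcnk3 is a known acid-sensitive background channel there.

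The promoters of 3 members that each had their highest level in a single class in both libraries, Kcnmb1 in smooth muscle-like, Kcnj8 in pericyte-like and Kcnk13 in macrophage-like nuclei, are given here. Each run gives the 250 bases before the RefSeq start in GRCm38.p6, 5′ to 3′ on the gene's strand. Capitals mark the E box CANNTG, which reads the same on both strands.
Kcnmb1 (chr11:33962763-33963012, plus strand): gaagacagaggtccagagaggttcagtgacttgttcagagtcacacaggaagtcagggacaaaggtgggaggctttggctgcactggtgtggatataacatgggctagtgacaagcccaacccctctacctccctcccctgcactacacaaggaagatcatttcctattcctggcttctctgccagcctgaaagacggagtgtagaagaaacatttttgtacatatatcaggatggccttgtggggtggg
Kcnj8 (chr6:142571615-142571864, minus strand): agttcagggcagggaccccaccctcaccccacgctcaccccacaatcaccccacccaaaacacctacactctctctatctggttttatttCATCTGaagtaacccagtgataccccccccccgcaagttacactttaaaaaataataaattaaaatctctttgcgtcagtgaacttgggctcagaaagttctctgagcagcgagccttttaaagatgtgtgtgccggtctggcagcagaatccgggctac
Kcnk13 (chr12:99964249-99964498, plus strand): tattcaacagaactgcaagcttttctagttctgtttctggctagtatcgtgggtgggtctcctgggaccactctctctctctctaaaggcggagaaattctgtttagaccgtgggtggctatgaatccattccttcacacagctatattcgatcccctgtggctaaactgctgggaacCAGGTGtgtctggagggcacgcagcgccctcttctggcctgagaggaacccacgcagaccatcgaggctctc
The Kcnmb1 window holds no E box and the other windows hold 1 each. All 32851 RefSeq promoter windows were searched in the same 250 bases before the start. Of these, 66.2% hold an E box, against 67.0% of the 94 windows of the 69 members that matched. The GC box GGGCGG (both strands) was in 44.7% of member windows and 32.7% of all windows. The TATA box TATAAA (both strands) was in 3.19% and 12.4%, and the CCAAT box (both strands) in 28.7% and 33.9%. The CArG box, the serum response factor motif, was in none of the member windows and in 1.47% of all windows. Median GC content was 58.6% in member windows and 52.4% in all. These are letter matches, not bound sites.

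Over all kept nuclei, 68 members had at least 20 UMIs, 23 had 1 to 19, and 3 (Kcnj11, Kcnk15 and Kcns2) had none. Among the 68 were 29 voltage-gated pore subunits, 9 voltage-gated auxiliary subunits, 9 inward rectifiers, 9 tandem-pore channels, 8 calcium- or sodium-activated pores, 3 BK beta subunits and Kcnrg. In total 21 members exceeded 1000 UMIs. Nuclear RNA includes unspliced transcripts, but whether introns entered the counting is not given in the sources used here. Longer members had more UMIs: over the 68, gene length and UMIs had a Spearman rho of 0.51, given as a description. Gene length had a median of 30.8 kb and reached 1135.4 kb (Kcnip4). Levels of different genes are therefore compared below only per kb of gene length, introns included. Such an order can differ per kb of exon.

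Smooth muscle-like nuclei had the highest summed level of the 94 genes in the control library, 7290 CPM (7053 to 7533), and adipocyte-like nuclei had the lowest, 505 CPM (499 to 511). The library labelled cKO gave 4507 CPM (4188 to 4843) and 535 CPM (528 to 543) in these classes. Natural killer or innate lymphoid-like nuclei stood at 5170 and 5030 CPM, mesothelial-like nuclei at 3908 and 3864 CPM, Schwann-like nuclei at 3960 and 2781 CPM, and pericyte-like nuclei at 3658 and 2581 CPM. Smooth muscle, Schwann and pericyte-like nuclei were thus lower in the library labelled cKO by log2 ratios of -0.69, -0.51 and -0.50. The intervals of the libraries do not overlap in these 3 classes. Intestinal epithelial-like (log2 -0.51) and T cell-like nuclei (log2 -0.39) were lower too. The highest sum in the library labelled cKO was that of natural killer or innate lymphoid-like nuclei.

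**Figure D1:**
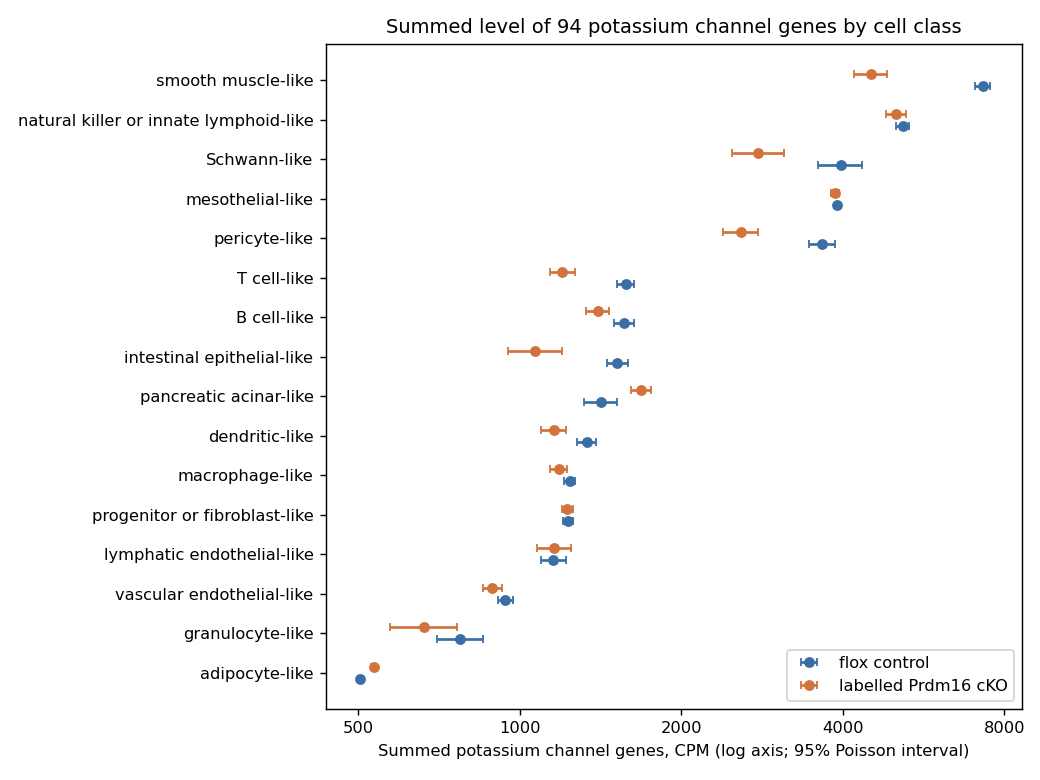
Summed CPM of the 94 potassium channel genes (log axis) in each cell class, control library in blue and library labelled cKO in orange, with 95% Poisson intervals of counting error. Smooth muscle-like nuclei stand at 7290 CPM in the control library and 4507 CPM in the library labelled cKO, and adipocyte-like nuclei at 505 and 535 CPM.

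By the class with the highest mean CPM, 11 of the 68 measured members peaked in smooth muscle-like nuclei, 7 each in Schwann and mesothelial-like, 6 each in pericyte and natural killer or innate lymphoid-like, and 4 in adipocyte-like nuclei. The UMI filter behind the 68 covers all nuclei, so a peak in a small class can rest on few UMIs. In pericyte-like nuclei Kcnj3 had 2 UMIs in the control and 0 in the library labelled cKO, beside 90 and 37 of Kcnb2. Likewise Kcna5 had 2 and 1 in smooth muscle-like nuclei, beside 1525 and 436 of Kcnab1. The share of all genes peaking in each class is not given here, so these counts do not rank the classes by channel content. For 43 of the 68 the leading class was the same in both libraries. The 4 members highest in adipocyte-like nuclei were Kcns3, a silent subunit that modifies Kv2 channels, Kcnk3, the inward rectifier Kcnj15 and the voltage-gated Kcnh4. For Kcnh4 the leading class differed from this in each library taken alone.

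**Figure D2:**
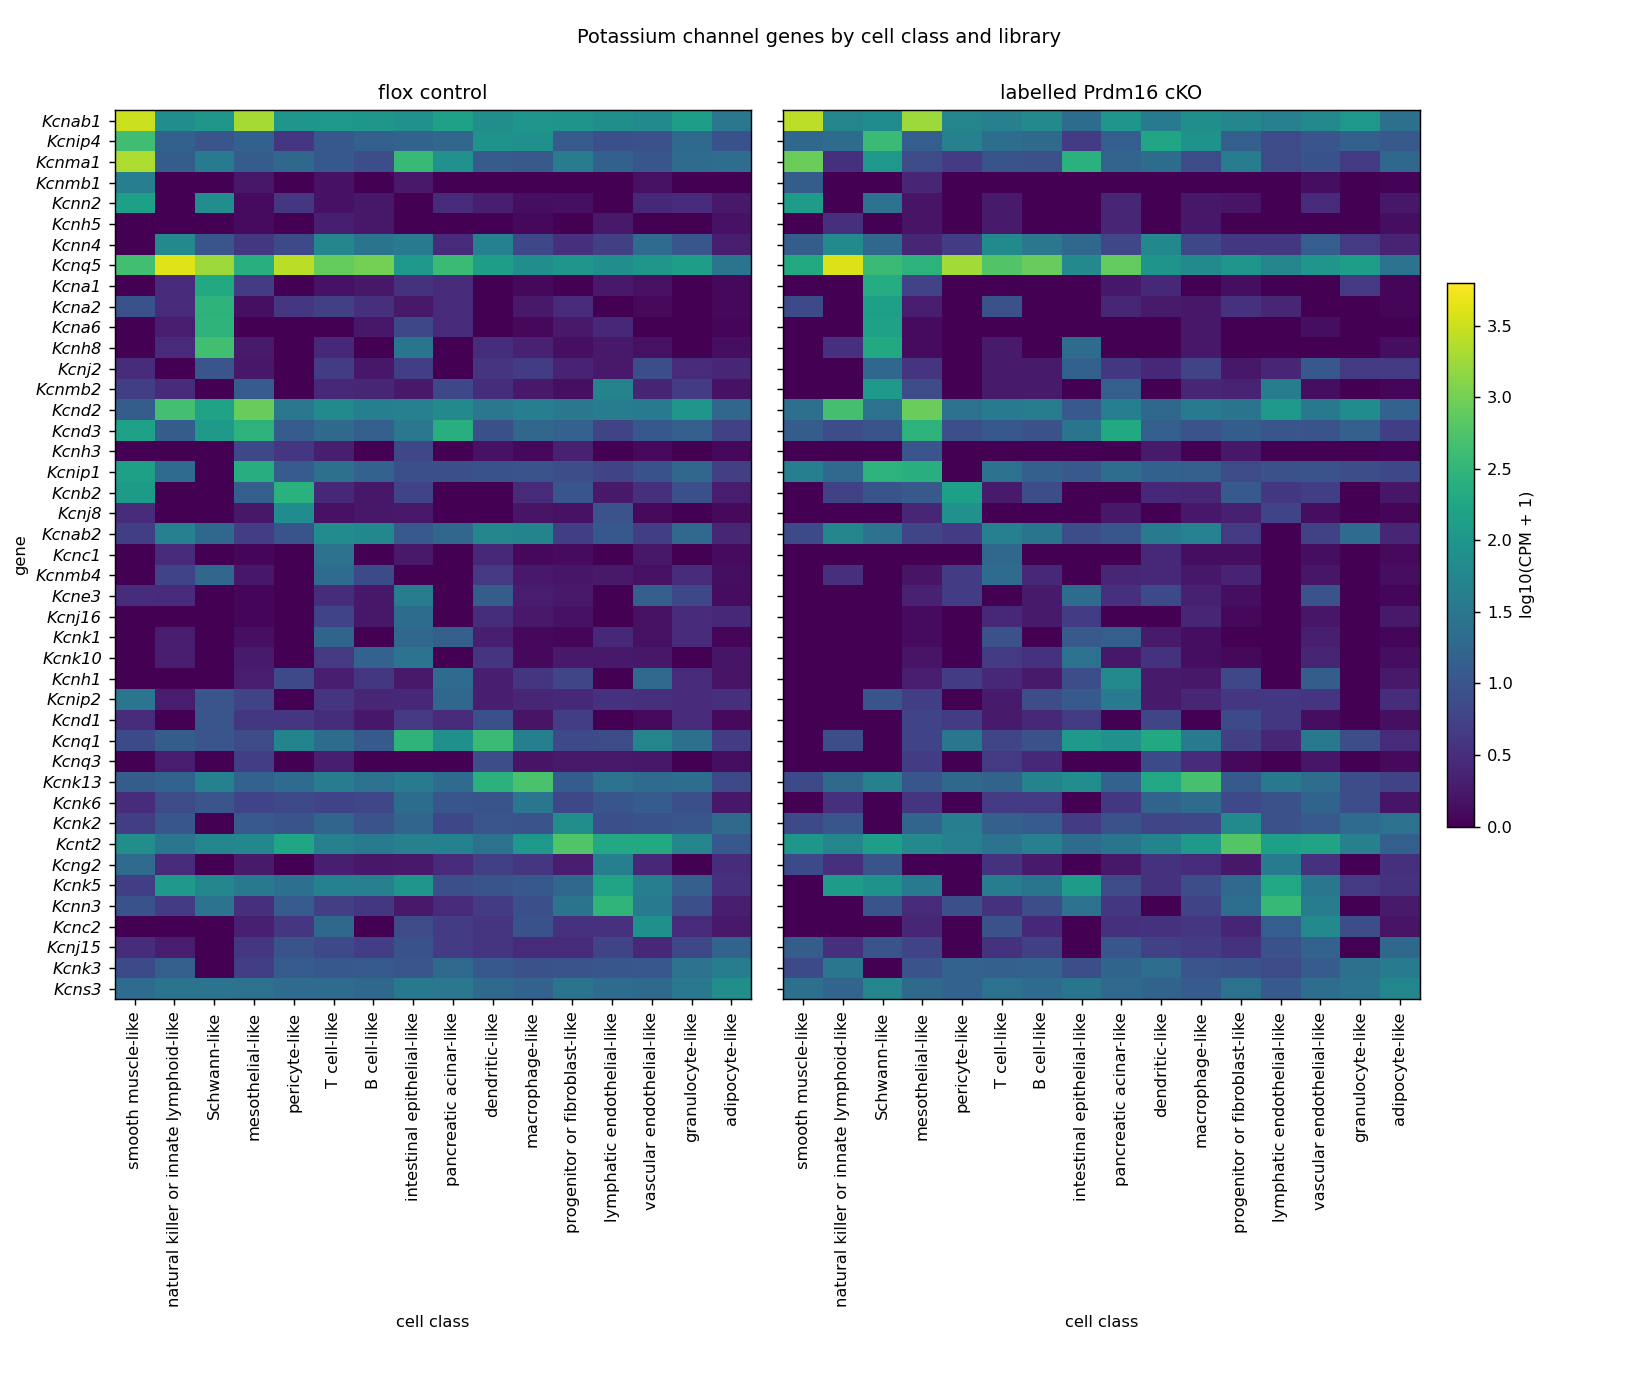
Level of 43 members, as log10(CPM + 1) in colour, in 16 cell classes of the control (left) and library labelled cKO (right). Members were picked for a high ratio of class level to the other classes, so bright blocks follow from the choice. Kcnq5 is bright in natural killer or innate lymphoid-like and pericyte-like columns of both panels, and Kcnab1 in smooth muscle and mesothelial-like nuclei.

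Smooth muscle-like nuclei (63 control, 34 cKO-labelled) carried all 9 of their marker genes, including Myh11 and Acta2. Kcnab1 (Kvbeta1, chr3:65109384-65378223), an auxiliary subunit of Kv1 channels, had the highest level per length among the measured members, 11.5 CPM per kb in the control and 9.86 in the library labelled cKO. Its counts were 1525 and 436 UMIs, or 3103 CPM (2949 to 3263) and 2652 CPM (2409 to 2913), a log2 ratio of -0.23 (-0.38 to -0.07). Its partner pores of the Kv1 family were near the detection limit: Kcna5 had 2 and 1 UMIs and Kcna2 had 4 and 1. The antisense genes A330015K06Rik and A730090N16Rik lie inside Kcnab1. Whether their reads were told apart from those of Kcnab1 is not known, because no source used here says whether counting used strand.

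The pore gene of the smooth muscle BK channel was lower in the library labelled cKO, whereas its beta subunit gene had few UMIs. The pore gene Kcnma1 (chr14:23289431-24014491) had 1071 UMIs in the control, 2179 CPM (2051 to 2314), and 145 UMIs in the library labelled cKO, 882 CPM (744 to 1038). The log2 ratio was -1.30 (-1.56 to -1.05). The beta subunit Kcnmb1 (chr11:33963013-33973641), the gene of the first promoter above, had 20 and 2 UMIs, 40.7 and 12.2 CPM, and its log2 ratio of -1.74 has an interval from -4.88 to 0.30, which includes 0. Per kb of gene, Kcnmb1 stood at 3.83 CPM and Kcnma1 at 3.005 CPM in the control. Kcnmb1 lies within Kcnip1 on the other strand, so its reads share that limit. Pericyte-like nuclei had no Kcnmb1 UMI in either library and 6 and 1 UMIs of Kcnma1.

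Of the Kv pores linked to vascular tone, Kcnq5 (chr1:21398403-21961942) had 216 and 33 UMIs, 440 and 201 CPM, a log2 ratio of -1.13 (-1.71 to -0.60). The small-conductance calcium-activated Kcnn2 was not separated from a log2 ratio of 0 by counting error, with 67 and 20 UMIs and a log2 ratio of -0.16 (-0.96 to 0.57). Inward rectifiers were few: Kcnj12 had 12 and 7 UMIs, Kcnj2 and Kcnj8 had 1 each in the control and none in the library labelled cKO, and Kcnj11 had none. Kcnk3 had 3 and 1 UMIs, Kcnk6 1 and 0, Kcnn3 4 and 0, Kcnn4 0 and 2, Kcnq1 3 and 0, and Kcnc1 none.

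In smooth muscle-like nuclei 12 members had at least 20 UMIs over both libraries, and 7 of these were at least 1.5 times lower and 0 at least 1.5 times higher in the library labelled cKO. Over all genes with that many UMIs in the class, 38.5% were past 1.5 times in either direction, 20% higher and 18.5% lower. The median log2 ratio was -1.22 over the 12 members and 0.06 over all such genes. Of the 7, the Kv4 auxiliary subunits Kcnip4 and Kcnip1 and the pores Kcnd3 (Kv4.3) and Kcnb2 (Kv2.2) rest on a few nuclei: 210 of 214 control UMIs of Kcnip4 and 32 of 57 of Kcnb2 came from 1 nucleus each. Kcnd3 had 73 UMIs (148 CPM) in the control and 2 in the library labelled cKO, a log2 ratio of -3.61 (-6.68 to -1.71). Kcnip1 had 71 and 7 UMIs (log2 -1.76, -3.13 to -0.65), and Kcnip4 had 214 and 3 (log2 -4.58). Kcnb2 stood at 116 CPM in the control library and at 0 UMIs in the library labelled cKO, where 3 counts would be 18.2 CPM.

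The control UMIs of these 4 genes lay mostly in few nuclei. Of the 63 control nuclei, Kcnip4 had a UMI in 5, Kcnb2 in 6 and Kcnd3 in 16. A split made after the data were seen divided the class by whether a nucleus had a UMI of Ryr3, a calcium release channel. It gave 12 control nuclei with Ryr3 (median 14135 UMIs), 51 control nuclei without (5106 UMIs), and 34 cKO-labelled nuclei, all without (3259 UMIs). Of the 491490 control UMIs of all genes in the class, the 12 nuclei held 186768. They held 98.6% of the control Kcnip4 UMIs, 94.4% of Kcnip1, 89.5% of Kcnb2 and 86.3% of Kcnd3. They also held 83.1% of Actg2, the enteric-type smooth muscle actin, and no UMI of Notch3, a vascular mural receptor that had 192 UMIs in the other 51 nuclei. For Kcnab1 the picture was the opposite: the 12 nuclei held 8 of its 1525 UMIs, 42.8 CPM against 4978 CPM in the 51. Kcnma1 was in both sets, at 2972 and 1693 CPM.

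Without the 12 nuclei, Kcnab1 stood at 4978 CPM in the control library and 2652 CPM in the library labelled cKO, a log2 ratio of -0.91 (-1.07 to -0.75). Kcnma1 stood at 1693 and 882 CPM (log2 -0.94, -1.22 to -0.67) and Kcnq5 at 351 and 201 CPM (log2 -0.81). Kcnmb1 had 13 of its control UMIs in the 12 nuclei, and 7 and 2 UMIs were left (log2 -0.92, -4.22 to 1.48). Kcnip4 had 3 UMIs in each set (log2 0.89), Kcnip1 4 and 7 (log2 1.70, -0.28 to 3.92) and Kcnd3 10 and 2, so the direction of Kcnip4 and Kcnip1 turned. So did that of Kcnn2, with 46 of its 67 control UMIs in the 12 nuclei: 21 and 20 UMIs were left, 68.9 and 122 CPM, a log2 ratio of 0.82 (-0.14 to 1.77). The summed level was 7741 and 4507 CPM. Of 7 members with at least 20 UMIs, 3 were lower and 1, Kcnn2, higher past 1.5 times, beside 36.9% of all genes in either direction, 20.5% higher and 16.4% lower; the median log2 ratio was -0.38 over the 7 and 0.03 over all genes.

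Other measured values moved with these ratios. The 9 smooth muscle markers summed to 10114 CPM in the control library and 5346 CPM in the library labelled cKO. These sums cover the whole class, the 12 Ryr3 nuclei included, and were lower together with the channel genes of the whole class. No marker sum is given without the 12 nuclei. There Myh11 had a log2 ratio of -0.69 (-0.86 to -0.53), Acta2 -0.79 (-1.11 to -0.48) and Actg2 -0.29 (-1.06 to 0.45). The 10 adipocyte markers, all with UMIs in the class, stood at 18.3% of their level in adipocyte-like nuclei in the control and 37.6% in the library labelled cKO. In pericyte-like nuclei these values were 31.4% and 51.5%. The adipocyte profile was also subtracted in proportion, over all smooth muscle-like nuclei with the 12 Ryr3 nuclei included. Kcnma1 then had a log2 ratio of -0.95, Kcnq5 -0.83 and Kcnab1 0.14, so that Kcnab1 turned from the -0.23 of the whole class. No subtracted value is given for the set without the 12 nuclei, where Kcnab1 had -0.91. Median depth was 6019 and 3259 UMIs. The part of marker level, adipocyte RNA and depth in the remaining differences was not tested.

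Of 49 partner genes listed for these channels (calcium channels, calcium release channels, depolarising channels, sodium pumps and accessory subunits), 23 were measured in smooth muscle-like nuclei, 4 higher and 10 lower past 1.5 times, beside 38.5% of all genes (20% higher, 18.5% lower). Several of these counts lie in the 12 Ryr3 nuclei, which held 99% of the control UMIs of Dpp10, a Kv4 partner, and 95.2% of those of the calcium channel Cacna1e. Abcc9, the KATP partner of Kcnj8, had 91 and 4 UMIs, of which 76 of the 91 came from these nuclei; without them it had 15 and 4 (log2 -1.02, -3.07 to 0.63). Cacna1c, the pore of the L-type calcium channel that BK and Kv currents oppose, stood at 4348 and 2992 CPM (log2 -0.54, -0.68 to -0.40), and at -0.35 without the 12 nuclei. Its beta subunit Cacnb2 had a log2 ratio of -1.21, and -0.62 without them, and the calcium release channel Ryr2 one of -0.86. The chloride channel Ano1 was higher, at 163 and 274 CPM (log2 0.75, 0.19 to 1.29).

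**Figure D3:**
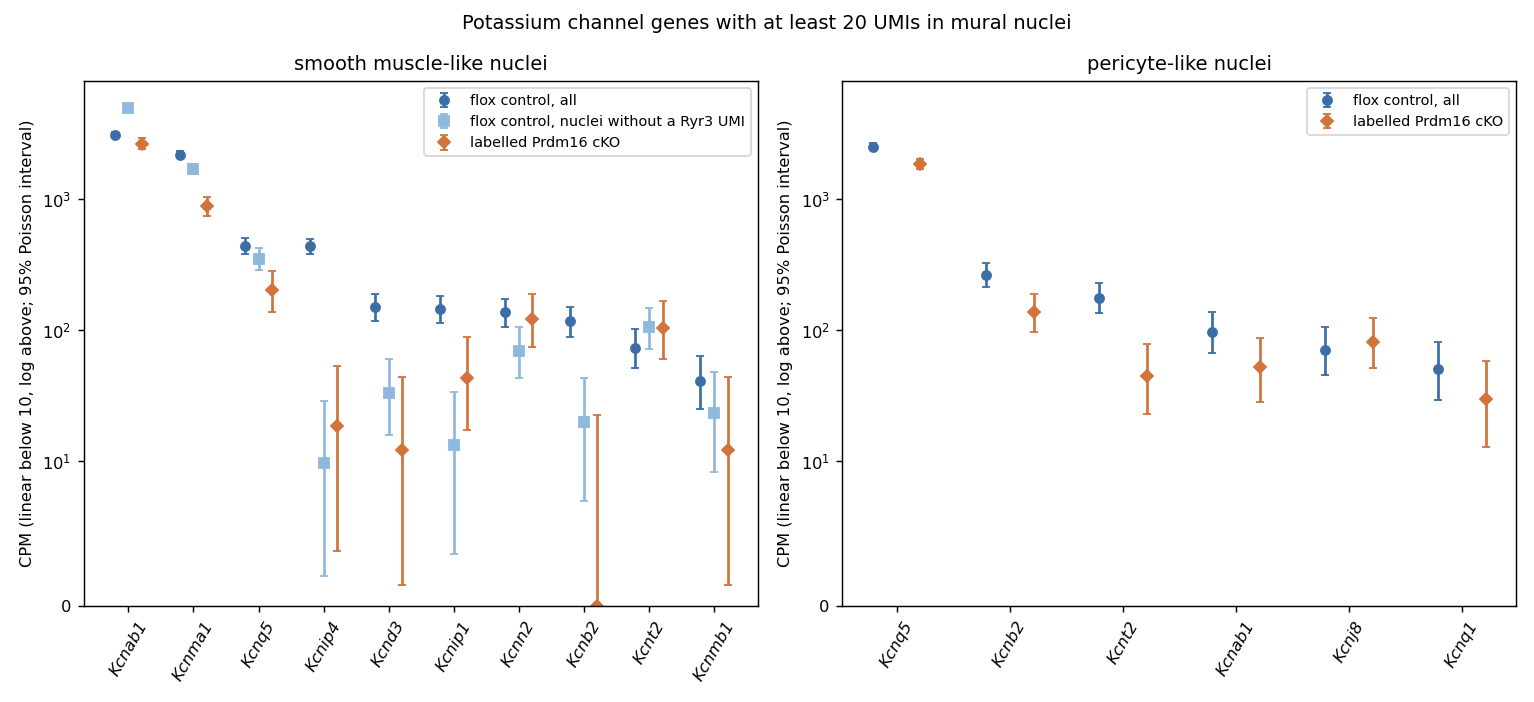
CPM (linear below 10, log above) of 10 members in smooth muscle-like (left) and 6 in pericyte-like nuclei (right), each with at least 20 UMIs, with 95% Poisson intervals, for the control, the control nuclei without a Ryr3 UMI (left only) and the library labelled cKO. Kcnma1 and Kcnq5 are lower in the library labelled cKO against both control sets, whereas Kcnip4, Kcnip1, Kcnd3 and Kcnb2 are high only with the Ryr3 nuclei included.

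Pericyte-like nuclei (74 control, 44 cKO-labelled) had another set of channels. Kcnj8 (Kir6.1, chr6:142564837-142571614), the pore of the vascular KATP channel, had the highest level per length of the 7 measured members, 10.4 and 12.0 CPM per kb. It had 24 and 22 UMIs in 18 and 15 nuclei, 70.6 CPM (45.3 to 105) in the control and 81.4 CPM (51.0 to 123) in the library labelled cKO. The log2 ratio of 0.20 has an interval from -0.70 to 1.10 and the library intervals overlap over most of their range. Its partner Abcc9, whose start lies 130.66 kb from that of Kcnj8, stood at 1416 and 1202 CPM (log2 -0.24, -0.44 to -0.03), and Abcc8 and Kcnj11 had no UMI in the class. Kcnj8 had 14 and 7 UMIs in all adipocyte-like nuclei together, 0.241 and 0.184 CPM.

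Kcnq5 (Kv7.5) was measured deeply in pericyte-like nuclei, with 857 and 499 UMIs spread over 70 of 74 and 39 of 44 nuclei. It stood at 2522 CPM (2356 to 2697) and 1845 CPM (1687 to 2014), a log2 ratio of -0.45 (-0.61 to -0.29), and at 4.48 and 3.27 CPM per kb. Kcnb2 had 90 and 37 UMIs, 265 and 137 CPM (log2 -0.95, -1.55 to -0.39). The sodium-activated Kcnt2 had 60 and 12 UMIs (log2 -1.99, -3.02 to -1.08), of which 22 control UMIs came from 1 nucleus. Kcnab1 had 33 and 14 UMIs (log2 -0.91, -1.92 to 0.03) and Kcnq1 17 and 8 (log2 -0.76, -2.18 to 0.53).

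Of the 7 measured members, 5 were at least 1.5 times lower and 0 higher in the library labelled cKO, beside 31.3% of all genes in either direction, 16.0% higher and 15.2% lower; the median log2 ratio was -0.76 over the 7 and -0.00 over all genes. With each nucleus weighted equally, only 1 of the 5 remained past 1.5 times. Subtracting the adipocyte profile brought Kcnq5 to 0.01 and the summed level from -0.50 to -0.09, while Kcnt2 kept -1.74 and Kcnb2 -0.49. The 8 pericyte markers summed to 3629 and 2866 CPM.

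Adipocyte-like nuclei (4428 control, 2895 cKO-labelled) were low in channel transcripts but the deepest class, with 54 members at 20 UMIs or more. Kcns3 (chr12:11090202-11151056), a silent subunit that joins Kv2 channels, had the highest level per length in the control, 1.24 CPM per kb, and stood at 0.895 CPM per kb in the library labelled cKO. Kcnk3 (chr5:30588170-30625271), the acid-sensitive background channel TASK1, was at 1.02 and 0.952 CPM per kb. Over the class total, Kcns3 stood at 75.2 CPM (72.9 to 77.4) and 54.5 CPM (52.1 to 56.8), a log2 ratio of -0.46 (-0.54 to -0.39), and the intervals do not overlap. Kcnk3 differed little, at 38.0 and 35.3 CPM (log2 -0.11, -0.20 to -0.01).

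The share of nuclei with a Kcnk3 UMI was 29.4% (28.1 to 30.8) and 28.3% (26.6 to 29.9), against 4.36% and 6.75% in B cell-like nuclei, which are shallower (median 3759 UMIs in the control, against 12084). With each nucleus thinned to 1000 UMIs the shares were 3.62% and 4.24% in adipocyte-like and 1.35% and 1.24% in B cell-like nuclei. The summed adipocyte markers were higher in the library labelled cKO in 14 of 15 other classes, whereas Kcnk3 was higher in 8 and Kcns3 in 5. In dendritic-like nuclei adipocyte markers stood at 24% and 39.8% of the adipocyte level, and Kcnk3 at 10.2 and 22.1 CPM (log2 1.12, 0.20 to 2.06). The part of adipocyte RNA in these ratios was not tested.

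Of the 54 measured members in adipocyte-like nuclei, 7 were at least 1.5 times higher and 6 lower in the library labelled cKO, 13 in all or 24.1%. Over all 17567 genes with 20 UMIs in the class, 13% were past 1.5 times, 7.71% higher and 5.33% lower. The intervals of 20 of the 54 left out 0, and the median log2 ratio was -0.02 over the members and 0.03 over all genes. With 50 UMIs required, 6 members and 8.80% of all genes were past 1.5 times. The number of members that reach 50 UMIs is not given here, so the 6 cannot be read as a share. Kcns3 and Kcnk3 lay within 1.5 times, and the 2 most deeply counted of those past it were Kcnq1 and Kcnj2.

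Higher members were led by inward rectifiers. Kcnj2 (Kir2.1, chr11:111066164-111076821), the classic strong inward rectifier, had 92 and 131 UMIs, 1.58 CPM (1.28 to 1.94) and 3.44 CPM (2.87 to 4.08), a log2 ratio of 1.12 (0.72 to 1.52). Kcnj3, a G protein-gated rectifier, had 6 and 17 UMIs (log2 2.11, 0.70 to 3.74). The tandem-pore Kcnk7 had 22 and 29 UMIs (log2 1.00, 0.16 to 1.87) and the voltage-gated Kcnh7 45 and 47 (log2 0.67, 0.05 to 1.29). Kcnt1, Kcnd1 and Kcng3 were also past 1.5 times, with intervals that include 0.

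Lower members included Kcnj16 (chr11:110968033-111027968), whose end lies 38.196 kb before the start of Kcnj2 on the same strand. It had 96 and 31 UMIs, 1.65 and 0.813 CPM, a log2 ratio of -1.02 (-1.66 to -0.43), so these neighbours differed in opposite directions. Kcnq1 (chr7:143106362-143427042), the Kv7.1 pore, had 215 and 74 UMIs, 3.70 CPM (3.23 to 4.23) and 1.94 CPM (1.52 to 2.44), a log2 ratio of -0.93 (-1.33 to -0.54). Its antisense transcript Kcnq1ot1 was at 499 and 528 CPM in the same nuclei. The use of strand in counting is not given in the sources used here, so whether reads of this overlapping pair were told apart is not known. The BK beta subunit Kcnmb2 had 32 and 7 UMIs (log2 -1.59, -3.01 to -0.38). Kcnk10, Kcne3 and Kcnq3 were past 1.5 times with intervals that include 0.

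Of the members with a vascular or adipose role, Kcnab1 was at 31.2 and 24.6 CPM (log2 -0.34), Kcnma1 at 21.6 and 17.8 (log2 -0.28), Kcnq5 at 28.5 and 27.4 (log2 -0.06, -0.17 to 0.05) and Kcnd3 at 4.46 and 4.09 CPM. Their intervals exclude 0 for Kcnab1 and Kcnma1. Kcnk2 (TREK1) was at 19.5 and 25.0 CPM (log2 0.36) and Kcnj15 at 14.9 and 18.1 (log2 0.27). The calcium-activated Kcnn2, Kcnn3 and Kcnn4 had 49 and 29, 63 and 33, and 59 and 52 UMIs, and their intervals include 0. Kcnk6 had 44 and 24 UMIs, Kcnh5 32 and 15, Kcnc1 16 and 9, Kcna2 12 and 5, Kcnj12 5 and 2, Kcna5 2 and 1, and Kcnmb1 1 and 4. Of the 49 partner genes 40 were measured here, with 1 higher and 3 lower past 1.5 times, beside the 13% of all genes given above.

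By role, the summed inward rectifiers stood at 21.0 and 25.3 CPM (log2 0.27, 0.15 to 0.39) and the voltage-gated pores at 326 and 354 CPM (log2 0.12, 0.08 to 0.15). Intervals of the other groups include 0, among them the tandem-pore channels at 67.9 and 70.0 CPM and the calcium- and sodium-activated pores at 36.6 and 36.4 CPM. Of the inward rectifier UMIs, Kcnj15 alone held 867 of 1219 in the control and 689 of 966 in the library labelled cKO. The inward rectifier sum thus mostly follows 1 gene.

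**Figure D4:**
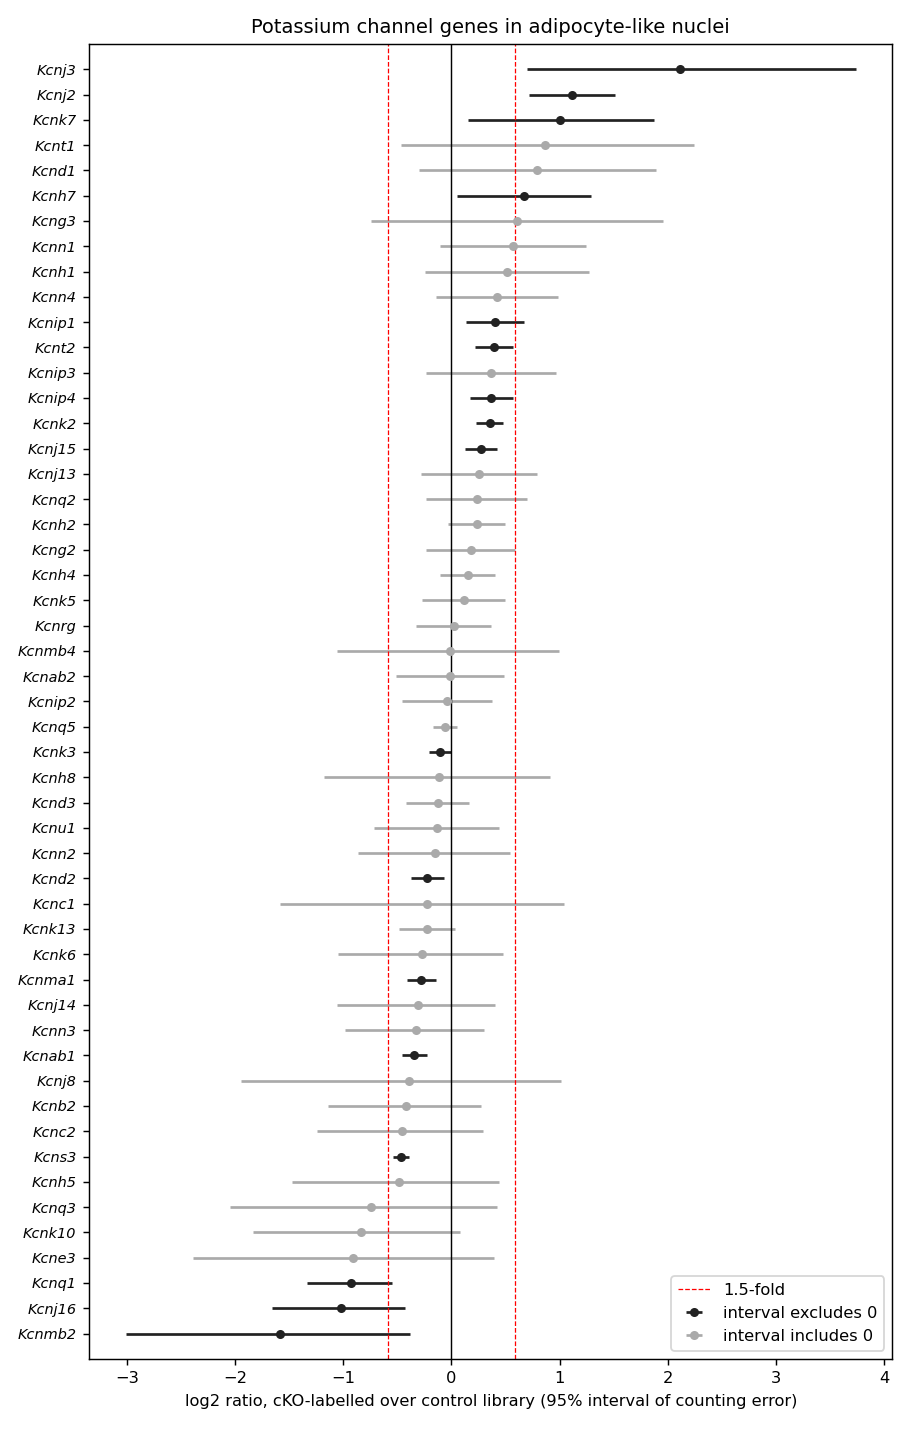
log2 ratio of the cKO-labelled over the control library for 51 of the 54 members with at least 20 UMIs in adipocyte-like nuclei, with 95% intervals of counting error; black marks intervals that exclude 0 and dashed lines mark 1.5 times. Kcnj3 (2.11) and Kcnj2 (1.12) lie at the top and Kcnmb2 (-1.59) and Kcnj16 (-1.02) at the bottom, and most members lie between the dashed lines.

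The adipocyte-like class joins clusters 0, 1, 2 and 5, which hold different shares of it in the libraries: cluster 0 has 42.4% of the control and 15.5% of the cKO-labelled nuclei of the class, and cluster 1 has 16.4% and 40.7%. Kcns3 was highest in cluster 0 in both libraries (90.0 and 86.9 CPM) and lowest in cluster 1 (50.3 and 38.3 CPM). Its log2 ratios in clusters 0, 1, 2 and 5 were -0.05, -0.39, -0.12 and -0.51, with intervals that leave out 0 in clusters 1 and 5. The cluster with its lowest level was thus the larger one in the library labelled cKO. Kcnk3 had log2 ratios of 0.19, -0.28, -0.38 and -0.12, so its direction was not the same in every cluster.

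Kcnj2 and Kcnq1 kept their direction in each of the 4 clusters. Kcnj2 had log2 ratios of 1.18, 0.61, 1.31 and 0.67, with intervals that leave out 0 in clusters 0 and 2. Kcnq1 had -1.48, -0.65, -0.92 and -0.66, with the same clusters outside 0. Kcnk2 had 0.83, 0.10, 0.70 and -0.15, and Kcnj16 -0.04, -1.55, -1.03 and -0.12, so their ratios rested on some clusters. Kcnj15 had 0.59, 0.28 and -0.42 in clusters 0, 1 and 2, with intervals that leave out 0 in clusters 0 and 2. Its direction was thus not the same in every cluster. Kcnj3 had 4 and 2 UMIs in cluster 0, 0 and 7 in clusters 1 and 2 each, and 2 and 1 in cluster 5.

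**Figure D5:**
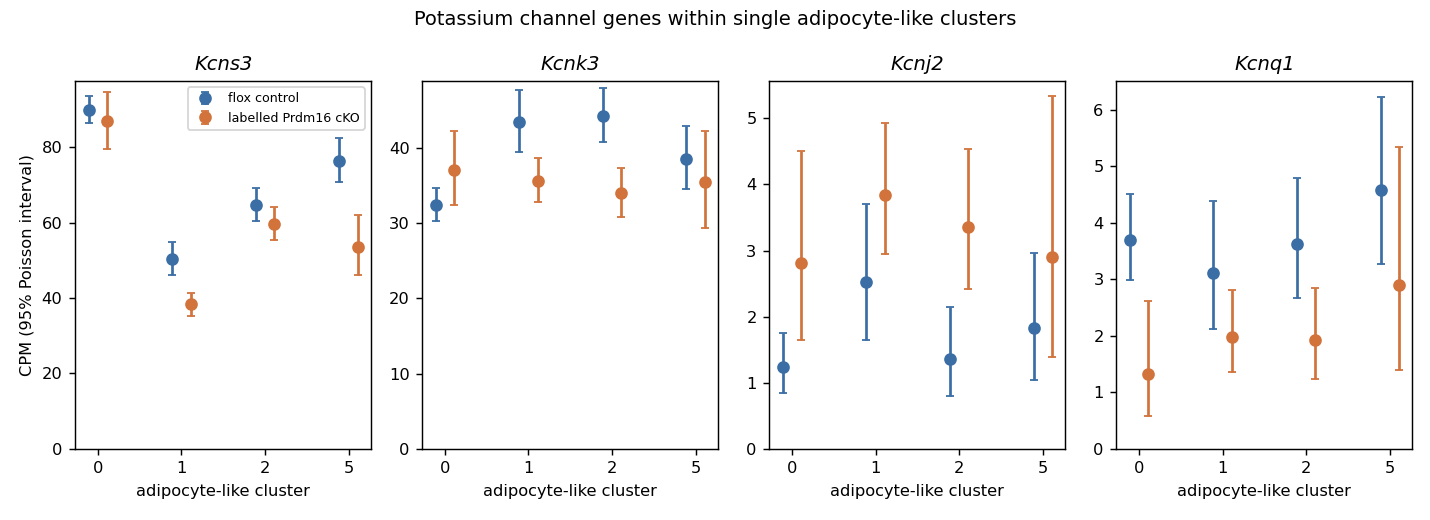
CPM of Kcns3, Kcnk3, Kcnj2 and Kcnq1 in adipocyte-like clusters 0, 1, 2 and 5, control in blue and library labelled cKO in orange, with 95% Poisson intervals. Kcns3 is highest in cluster 0 and lowest in cluster 1 in both libraries, while Kcnj2 is higher and Kcnq1 lower in the library labelled cKO in each cluster.

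Outside mural and adipocyte nuclei, Kcnq5 was counted most among members in natural killer or innate lymphoid-like nuclei, at 4112 CPM (3991 to 4237) and 3940 CPM (3754 to 4132), with Kcnd2 at 456 and 481, Kcnk5 at 110 and 126, Kcnn4 at 60.8 and 65.4 and Kcnab2 at 44.6 and 53.7 CPM. The intervals of all 5 ratios include 0. Of 14 measured members 2 were higher and 1 lower past 1.5 times, beside 22.1% of all genes (11.9% higher, 10.2% lower), and no interval left out 0. B cell-like nuclei had Kcnq5 at 1002 and 837 CPM (log2 -0.26, -0.38 to -0.14), Kcnk5 at 43.8 and 29.0 and Kcnab2 at 57.6 and 29.0 CPM (log2 -0.99). There 3 of 20 members were higher and 6 lower past 1.5 times, beside 22.0% of all genes (13.5% higher, 8.53% lower), and the tandem-pore Kcnk10 (19 and 3 UMIs, log2 -2.51) had the largest ratio. T cell-like nuclei had Kcnq5 at 795 and 583 CPM (log2 -0.45, -0.58 to -0.32). The class joins clusters 10 and 25. In cluster 25 Kcnq5 went the other way, at 312 and 542 CPM (log2 0.80, 0.36 to 1.235). Kcnn4, the KCa3.1 channel of lymphocytes, was at 55.7 and 61.6 CPM in T cell-like and 28.4 and 31.6 CPM in B cell-like nuclei, with intervals that include 0.

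In T cell-like nuclei 11 of 24 measured members were lower and 2 higher past 1.5 times, 54.2% in all, beside 18.8% of all genes (9.87% higher, 8.91% lower). The 3 with the largest ratios were Kcnq1 with 39 and 6 UMIs (log2 -2.03), of which 17 control UMIs came from 1 nucleus and which turned to 0.72 in nuclei thinned to 1000 UMIs, Kcnk13 with 72 and 18 (log2 -1.33, 26 control UMIs from 1 nucleus) and Kcnab1 with 195 and 52 (log2 -1.23, -1.70 to -0.78). Kcnab1 was spread over 125 control and 46 cKO-labelled nuclei. Kcnc1, which helps to define T cell-like cluster 25, had 49 and 21 UMIs (log2 -0.55, -1.36 to 0.22), and Kcnmb4 was level at 20.4 and 20.5 CPM. Within cluster 25 Kcnc1 had 33 and 7 UMIs (log2 -1.79, -3.21 to -0.59). Kcnc2 had 33 and 9 UMIs and Kcnk1 29 and 9.

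Kcnk13 (chr12:99964499-100062682), a tandem-pore channel known from microglia and macrophages and the third promoter above, was at 513 CPM (494 to 533) and 493 CPM (467 to 521) in macrophage-like nuclei. It had a UMI in 71.8% and 65.5% of them, against 7.72% and 13.5% of B cell-like nuclei (median depth 4593 and 3759 UMIs in the control). Thinned to 1000 UMIs, the shares were 33.9% and 35.6%, against 3.70% and 3.11%. The log2 ratio was -0.06 (-0.16 to 0.04). Dendritic-like nuclei had Kcnk13 at 278 and 187 CPM (log2 -0.57, -0.81 to -0.34) and Kcnq1 at 383 and 205 CPM (log2 -0.90, -1.12 to -0.69). In dendritic-like nuclei 10 of 24 members were higher and 6 lower past 1.5 times, beside 21.7% of all genes (14.3% higher, 7.34% lower). Kcnk3 (19 and 25 UMIs) was among the higher ones, together with the adipocyte markers given above.

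In macrophage-like nuclei Kcnip4 was at 79.8 and 87.4 CPM, Kcnab2 at 51.6 and 47.3, Kcnq1 at 43.0 and 37.0 and Kcnk6 at 29.8 and 21.4 CPM (log2 -0.48, -0.95 to -0.03). Of 27 measured members 2 were higher and 7 lower past 1.5 times, beside 13.4% of all genes (8% higher, 5.44% lower). Kcnd3 had 84 and 22 UMIs (log2 -1.0) and Kcnc2 40 and 8 (log2 -1.39). With each nucleus weighted equally, Kcnc2 turned to 0.12.

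Mesothelial-like nuclei carried the Kv4 set: Kcnd2 at 829 and 859 CPM, Kcnd3 at 286 and 289 CPM and the auxiliary Kcnip1 at 230 and 249 CPM, beside Kcnab1 at 1927 CPM (1894 to 1960) and 1778 CPM (1732 to 1824). Kcnab1 was slightly lower (log2 -0.12, -0.16 to -0.07), and the intervals of the other 3 include 0. Kcnh3 had 38 and 29 UMIs. Of 34 measured members 7 were higher and 6 lower past 1.5 times, beside 13.1% of all genes (7.94% higher, 5.18% lower); Kcnk3 (28 and 27 UMIs, log2 0.99) was higher, and Kcnmb2 (79 and 21, log2 -0.86) and Kcnma1 (78 and 22, log2 -0.78) were lower. In nuclei thinned to 1000 UMIs Kcnmb2 turned to 0.78.

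Progenitor or fibroblast-like nuclei had Kcnt2, a sodium-activated pore, at 576 CPM (559 to 594) and 610 CPM (589 to 631), with Kcnk2 at 74.3 and 65.3, Kcnn3 at 28.4 and 22.96, Kcnh1 at 5.16 and 5.46 and Kcnd1 at 3.90 and 6.21 CPM. Kcnab1 was lower, at 91.0 and 56.8 CPM (log2 -0.68, -0.88 to -0.48). Past 1.5 times were 3 higher and 3 lower of 34 members, beside 12.4% of all genes (7.91% higher, 4.49% lower).

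Endothelial channels differed in level between endothelial clusters, which is a description since the clusters come from the same nuclei. Vascular endothelial-like nuclei had Kcnc2 (Kv3.2) at 81.1 CPM (72.5 to 90.5) and 60.6 CPM (51.7 to 70.5), log2 -0.42 (-0.70 to -0.15). The small-conductance Kcnn3, which takes part in endothelial hyperpolarisation, was level there at 37.7 and 39.2 CPM. It was at 125 and 229 CPM in cluster 21, which has arterial genes such as Gja5 and Sox17 among its leading genes, and at 1.02 and 3.30 CPM in cluster 13, which has the capillary gene Gpihbp1 among its leading genes. Kcnn4 followed it, at 54.7 and 59.2 CPM in cluster 21 and 3.05 and 4.13 CPM in cluster 13. Over the whole class Kcnn4 was at 19.97 and 12.7 CPM (log2 -0.65), Kcnj2 at 7.08 and 9.79, Kcnh1 at 18.7 and 12.3 and Kcne3 at 13.1 and 8.34 CPM.

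The largest ratio in vascular endothelial-like nuclei was that of Kcnj15, with 7 and 41 UMIs, 1.77 CPM (0.711 to 3.64) and 14.9 CPM (10.7 to 20.2), log2 3.07 (1.90 to 4.47). Kcnj15 peaks in adipocyte-like nuclei, at 14.9 and 18.1 CPM. The adipocyte markers of the class stood at 27.0% and 45.1% of the adipocyte level. The part of adipocyte RNA in the Kcnj15 ratio was not tested. Of its 41 UMIs in the library labelled cKO, 9 came from 1 nucleus. Kcnq1 was lower, at 53.1 and 33.0 CPM (log2 -0.69). Of 29 members 4 were higher and 4 lower past 1.5 times, beside 21.3% of all genes (13.2% higher, 8.11% lower).

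Lymphatic endothelial-like nuclei were high in Kcnn3, 301 CPM (270 to 334) and 346 CPM (302 to 395), and in Kcnk5 (TASK2), 167 and 181 CPM, with Kcnmb2 at 49.7 and 39.3 CPM and Kcng2 at 43.0 and 37.7 CPM. The intervals of these 4 include 0. Kcnt2 was lower at 195 and 142 CPM (log2 -0.46, -0.83 to -0.10), as was Kcnab1 at 75.8 and 44.0 CPM. Of 12 measured members 2 were higher and 3 lower past 1.5 times, beside 19.2% of all genes (10.4% higher, 8.87% lower). The higher Kcnd2 (46 and 66 UMIs, log2 1.42) rests on 1 nucleus with 54 UMIs; without it the ratio was -0.94.

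Schwann-like nuclei (28 and 25) held the axonal and glial Kv1 pores: Kcna1 at 22 and 26 UMIs, Kcna2 at 31 and 16, Kcna6 at 32 and 17 (log2 -0.97, and 0.75 thinned to 1000 UMIs), with the voltage-gated Kcnh8 at 49 and 23 UMIs. Kcnq5 was at 1766 CPM (1526 to 2033) and 385 CPM (280 to 517). Of 9 measured members 3 were higher and 5 lower past 1.5 times, beside 35.4% of all genes (19.4% higher, 16.1% lower). The 3 largest ratios rest on single nuclei: 32 of 33 cKO-labelled UMIs of Kcnip1, 42 of 44 of Kcnip4 and 16 of 17 control UMIs of Kcnd2. Without that nucleus Kcnd2 turned from -2.56 to 0.77.

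Pancreatic acinar-like and intestinal epithelial-like nuclei, from organs that border the mesentery, took unequal shares of the libraries, 0.722% and 2.41% of nuclei for the former and 1.37% and 0.325% for the latter. Acinar-like nuclei had Kcnd3 at 251 and 199 CPM, Kcnq5 at 394 and 770, Kcnq1 at 79.9 and 83.9, Kcnh1 at 20.4 and 60.4 and Kcnip2 at 16.7 and 35.3 CPM, with Kcnk1 at 7 and 17 UMIs. Of 20 members 6 were higher and 5 lower past 1.5 times, beside 23% of all genes (15% higher, 8.04% lower), and Kcnma1 (44 and 21 UMIs, log2 -2.31, -3.14 to -1.53) had the largest ratio. Intestinal epithelial-like nuclei had Kcnma1 at 368 and 264 CPM, Kcnq1 at 298 and 111, Kcne3, the Kcnq1 partner of intestinal epithelium, at 38.3 and 21.4, Kcnh8 at 28.5 and 21.4 and Kcnk10 at 26.9 and 25.0 CPM. There 12 of 21 members were lower and 3 higher past 1.5 times, beside 33.6% of all genes (14.1% higher, 19.5% lower), with 24 nuclei in the library labelled cKO. Granulocyte-like nuclei had 8 measured members, with 2 higher and 0 lower past 1.5 times, beside 22.6% of all genes (14.0% higher, 8.53% lower). Kcnab1 was there at 132 and 106, Kcnd2 at 97.7 and 68.7, Kcns3 at 31.9 and 27.5 and Kcnk3 at 26.3 and 24.0 CPM.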

How the data were processed

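Nuclei of mesenteric perivascular fat were profiled with 10x Genomics 3′ chemistry, 1 library per group. The authors deposited raw UMI counts per gene and nucleus, per the submitters' processing notes with Cell Ranger 6.1.2 on mm10. Which annotation release and barcode filter were used, and whether introns and strand entered the counting, is not given in the sources used here. Longer pre-mRNAs can give more counts, which limits comparisons of level between genes.

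Kept nuclei had 500 UMIs or more, 300 detected genes or more and mitochondrial UMIs below 5% (Python 3.11.15, scanpy 1.11.5, numpy 2.4.6, scipy 1.17.1, pandas 2.3.3). Scrublet's own cut marked 0.0086% of control and 0% of cKO-labelled nuclei, so the highest scores were removed at 0.8% per 1000 nuclei (1079 and 495 nuclei). Clustering used 2000 variable genes, 30 components, 20 neighbours and Leiden at resolution 1.0 (leidenalg 0.10.2, igraph 0.11.9). A cluster was named when at least 3 markers of a type were detected in 5% of its nuclei at 2 times the rest; cluster 4 stayed unnamed. These names are rebuilt and may differ from the study's.

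Levels are CPM of the class total with exact 95% Poisson intervals, ratios have exact conditional binomial intervals, and shares have Clopper-Pearson intervals. With 1 library per group there is no test. A member counts as past the fold at 1.5 times with at least 20 UMIs over both libraries; a count of 0 has a floor of 3 counts. Scripts were tested on simulated data. Gene spans and lengths are from GENCODE for GRCm38, the assembly that mm10 names, and promoters from RefSeq.

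Named members are those with a textbook role in vascular tone or fat, up to 5 per class with the highest level against the median of other classes, and up to 5 (adipocyte-like) or 3 (other classes) with the largest ratios whose interval leaves out 0. Some of the last 2 kinds are given by count only, and some genes, though counted, are not reported here. The members and all lists were chosen with earlier results of these data known. Alternatives covered scaling, thinning, count filters, the fold, doublets, clustering, free RNA, single clusters and the mitochondrial limit; the Ryr3 split and leaving out the nucleus with most UMIs were added after seeing the data.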

Additional observations from a re-analysis of the deposited data

How the results depend on the processing

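No paired analysis was possible because each group has 1 library. Over 128 gene ratios, 1195 alternative values were computed, of which 100 had the opposite sign; of 47 called ratios, 8 were reversed under at least 1 alternative. The cause of these moves was not tested unless the setting itself shows it. A setting can also change how many members are measured and how many of all genes pass. Where these numbers are not given above, the counts below cannot be read as shares or as results about the members. In adipocyte-like nuclei the count past 1.5 times went from 13 to 6 (50 UMIs), 24 (1 UMI in each library), 5 (2 times), 4 (thinned to 1000 UMIs), 20 (free RNA subtracted) and 7 (within cluster 5). The summed log2 ratio went from 0.0848 to 0.0522 (median scaling), 0.0573 (mean CPM per nucleus), 0.0505 (thinned), 0.14 (free RNA), 0.0439 (cluster 1) and -0.0578 (cluster 2, reversed). The pericyte-like count went from 5 to 3 (50 UMIs), 17 (1 UMI in each library), 1 (2 times), 1 (mean CPM) and 1 (thinned), and its summed log2 ratio from -0.50 to -0.18 (mean CPM), -0.20 (thinned), -0.23 (no doublet removal) and -0.0928 (free RNA). The smooth muscle-like count went from 7 to 13 (1 UMI in each library), 2 (thinned) and 4 (without Ryr3 nuclei), and its summed log2 ratio from -0.69 to -0.57 (mean CPM), -0.56 (thinned), -0.57 (no doublet removal), -1.02 (mitochondrial limit of 1%) and -0.37 (free RNA). Thinning reversed Kcnmb2 in mesothelial-like (0.78), Kcnq1 in T cell-like (0.72), Kcnd2 in lymphatic endothelial-like (-0.58) and intestinal epithelial-like (1.05), and Kcna6 in Schwann-like nuclei (0.75). Mean CPM per nucleus reversed Kcnc2 in macrophage-like (0.12) and Kcnd2 in Schwann-like nuclei (0.21). Without the nucleus with most UMIs, Kcnd2 was at -0.94 in lymphatic endothelial-like and 0.77 in Schwann-like nuclei. Without Ryr3 nuclei, smooth muscle-like Kcnip4 was at 0.89, Kcnip1 at 1.70 and Kcnn2 at 0.82. Depth limits the small classes: 3 counts equal 26.2 CPM in cKO-labelled Schwann-like, 18.2 CPM in smooth muscle-like and 0.0787 CPM in adipocyte-like nuclei.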
